A study of Mus musculus with 38 samples.

Results

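Matrix metalloproteinases (MMPs) and their tissue inhibitors (TIMPs) were followed across 3 kinds of mouse cell: 7 MMP genes (Mmp2, Mmp3, Mmp9, Mmp12, Mmp13, Mmp14 and Mmp19) and 3 TIMP genes (Timp1, Timp2 and Timp3). These 10 genes were taken by name, and each symbol matched 1 Ensembl identifier among the 55487 genes of each count table. The series compared the response to low oxygen of myeloid cells and glioma cells, grown alone or together, by sequencing poly(A) RNA in 38 libraries of 18 groups. BV2 is an immortalised line of mouse microglia, the resident macrophages of the brain. GL261 is a mouse glioma line, here stably carrying the plasmid pEGFP-N1 for a green fluorescent protein. BMDM are bone marrow-derived macrophages, primary cells of wild-type (WT) genotype with no strain or age in the labels. In the co-culture experiment each kind of cell was kept alone or in direct contact with another kind. Normoxia means 21% oxygen and hypoxia an oxygen level under 0.1%, each lasting 16 h. BV2 cells were seeded onto GL261 cells at 1 to 2 in medium with 2% serum, and BMDM onto GL261 cells at 1 to 1 in medium with 10% serum. The labels do not say how the cells were separated again. In the panobinostat experiment BV2 cells and BMDM, without GL261 cells, received the solvent dimethyl sulfoxide (DMSO) in normoxia or hypoxia, or, in hypoxia only, panobinostat at 10 nM, which blocks histone deacetylases. Serum was 2% for BV2 cells and 10% for BMDM in every group, and no serum value was at hand for GL261 cells alone. Comparisons of BMDM with BV2 cells therefore cannot tell cell kind and serum apart. Groups held 2 libraries each, except for 3 in each of the 2 BMDM co-culture groups.

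MMPs are zinc-dependent proteases that cut collagens, elastin, laminins and other proteins of the extracellular matrix. They are made as inactive precursors, many are secreted, and TIMPs block their active sites. In gliomas, MMPs made by tumour cells and by microglia or macrophages are known for clearing matrix along the routes of invasion, and transcripts say nothing of whether the protease made from them is active.

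A floor of 3 counts lay between 0.110 and 0.311 CPM (counts scaled to a common library size) over the 38 libraries, whose totals ran from 9634700 to 27238933 counts. Levels are given as CPM scaled with the TMM method, and tests are edgeR's quasi-likelihood test with Benjamini-Hochberg adjustment over all genes tested, where "called" means an adjusted p under 0.05. Counts of members at an unadjusted p, or by the alternative test DESeq2, stand without the share of all genes under that rule. They therefore cannot set the members apart from other genes. The common coefficient of variation between replicates was 0.0958 in the BV2 fit, 0.133 in the GL261 fit and 0.222 in the BMDM fit of the co-culture experiment. In the panobinostat experiment it was 0.205 for BV2 and 0.381 for BMDM. The labels call the libraries biological replicates without naming separate cultures or animals, so the p-values measure the spread between these libraries. All 12 myeloid markers were detected in every BV2 and BMDM library. The glioma markers summed to 2806 to 4511 CPM (not TMM-scaled) over the GL261 libraries. All marker sums are CPM without TMM scaling, while levels of single markers are TMM-scaled. In the BMDM libraries of the panobinostat experiment, 7 fibroblast markers summed to 2674 to 23239 CPM against 105 to 226 CPM in BMDM grown alone in the co-culture experiment, so these groups were set apart from ordinary BMDM throughout.

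Of the 10 genes, 3 lie in the MMP gene cluster on chromosome 9 (GRCm38, equal to mm10): Mmp13 (ENSMUSG00000050578, chr9:7272514-7283331), Mmp12 (ENSMUSG00000049723, chr9:7344381-7369499) and Mmp3 (ENSMUSG00000043613, chr9:7445822-7455975), all on the plus strand. The promoter windows of these 3 genes are shown because 2 of them gave the largest responses to hypoxia described below, while Mmp3, from the same cluster, was nearly silent. Each line gives the 120 bases before an annotated start in RefSeq (GRCm38.p6), 5′ to 3′ on the plus strand, and capitals mark a match to TGANTCA, the element bound by the transcription factor AP-1. Mmp13 is at chr9:7272394-7272513, the inner start of Mmp12, which lies within an intron of the longer Mmp12 transcripts, at chr9:7347254-7347373, and Mmp3 at chr9:7445702-7445821.
Mmp13: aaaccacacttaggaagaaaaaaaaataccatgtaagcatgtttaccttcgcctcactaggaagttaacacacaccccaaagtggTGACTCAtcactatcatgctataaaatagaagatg
Mmp12, inner start: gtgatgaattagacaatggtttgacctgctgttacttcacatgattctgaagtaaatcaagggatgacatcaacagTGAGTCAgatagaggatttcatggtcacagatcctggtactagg
Mmp3: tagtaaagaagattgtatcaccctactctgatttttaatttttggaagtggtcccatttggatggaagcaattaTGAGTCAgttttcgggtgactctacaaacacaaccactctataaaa

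TGANTCA, which reads the same way on both strands, began 35, 44 and 46 bases before the start of Mmp13, the inner start of Mmp12 and the start of Mmp3. The 250 bases before the first start of Mmp12 held no match. Of 32851 promoter windows of 250 bases in the table, 6.75% held the element, so its presence in 3 genes that behaved differently is a description of the sequence alone. Promoters were matched for 7 of the 10 genes, and Mmp2, Mmp9 and Mmp19 were not among them. The hypoxia response core ACGTG, searched on both strands, was found in 16.6% of all windows and in those of 2 members, with capitals marking it in either orientation. Both are shown because they were called lower in hypoxic GL261 cells, while Timp1 was called higher in hypoxic BV2 cells. Mmp14 is read at chr14:54431478-54431597 and Timp1 at chrX:20870046-20870165.
Mmp14: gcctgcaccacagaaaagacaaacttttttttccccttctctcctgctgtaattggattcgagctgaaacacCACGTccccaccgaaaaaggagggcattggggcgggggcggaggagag
Timp1: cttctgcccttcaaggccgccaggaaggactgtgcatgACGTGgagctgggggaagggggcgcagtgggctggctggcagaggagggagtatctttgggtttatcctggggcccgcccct

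The other genes were Mmp2 (ENSMUSG00000031740, chr8:92827291-92853420), Mmp9 (ENSMUSG00000017737, chr2:164940780-164955850), Mmp14 (ENSMUSG00000000957, chr14:54431612-54445364) and Mmp19 (ENSMUSG00000025355, chr10:128790910-128800824). The inhibitor genes were Timp1 (ENSMUSG00000001131, chrX:20870166-20874735), Timp2 (ENSMUSG00000017466, chr11:118301069-118355740, minus strand) and Timp3 (ENSMUSG00000020044, chr10:86300372-86349506). Some members share exon bases with a gene on the opposite strand: 22.3% of Mmp19 with Tmem198b and 21.3% of Timp3 with Syn3. The library kit keeps strand, but the strand setting of the counting is not given in the sources used here.

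In normoxia, GL261 cells alone differed from BV2 cells and BMDM alone in their leading MMP and TIMP transcripts. Per kilobase of exon, normoxic BV2 cells alone carried mainly Timp2, a secreted inhibitor that also takes part in activating pro-MMP2, at a mean of 16.1 CPM per kb, and Mmp19, a secreted MMP that cuts basement membrane proteins, at 4.89 CPM per kb. No other member passed 0.37 CPM per kb there. Normoxic GL261 cells alone carried far more: Mmp2, the gelatinase that cuts type IV collagen, at 214 CPM per kb, then Timp3, the matrix-bound inhibitor, at 78.7, Timp2 at 60.3, Timp1, the secreted inhibitor of most MMPs, at 53.4, and Mmp14, the membrane-anchored collagenase that activates pro-MMP2, at 15.5. The libraries of neighbours in this GL261 order did not overlap, except those of Timp2 and Timp1. Normoxic BMDM alone again had Timp2 (42.9 CPM per kb) and Mmp19 (11.0) in front, followed by Timp1 (3.90) and Mmp12, the macrophage elastase (2.92), whose libraries overlapped each other. In hypoxic BMDM the order was Mmp12 (167 CPM per kb), Mmp13, the collagenase of fibrillar collagens (59.1), and Timp2 (39.3), with Mmp13 and Timp2 overlapping.

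**Figure D1:**
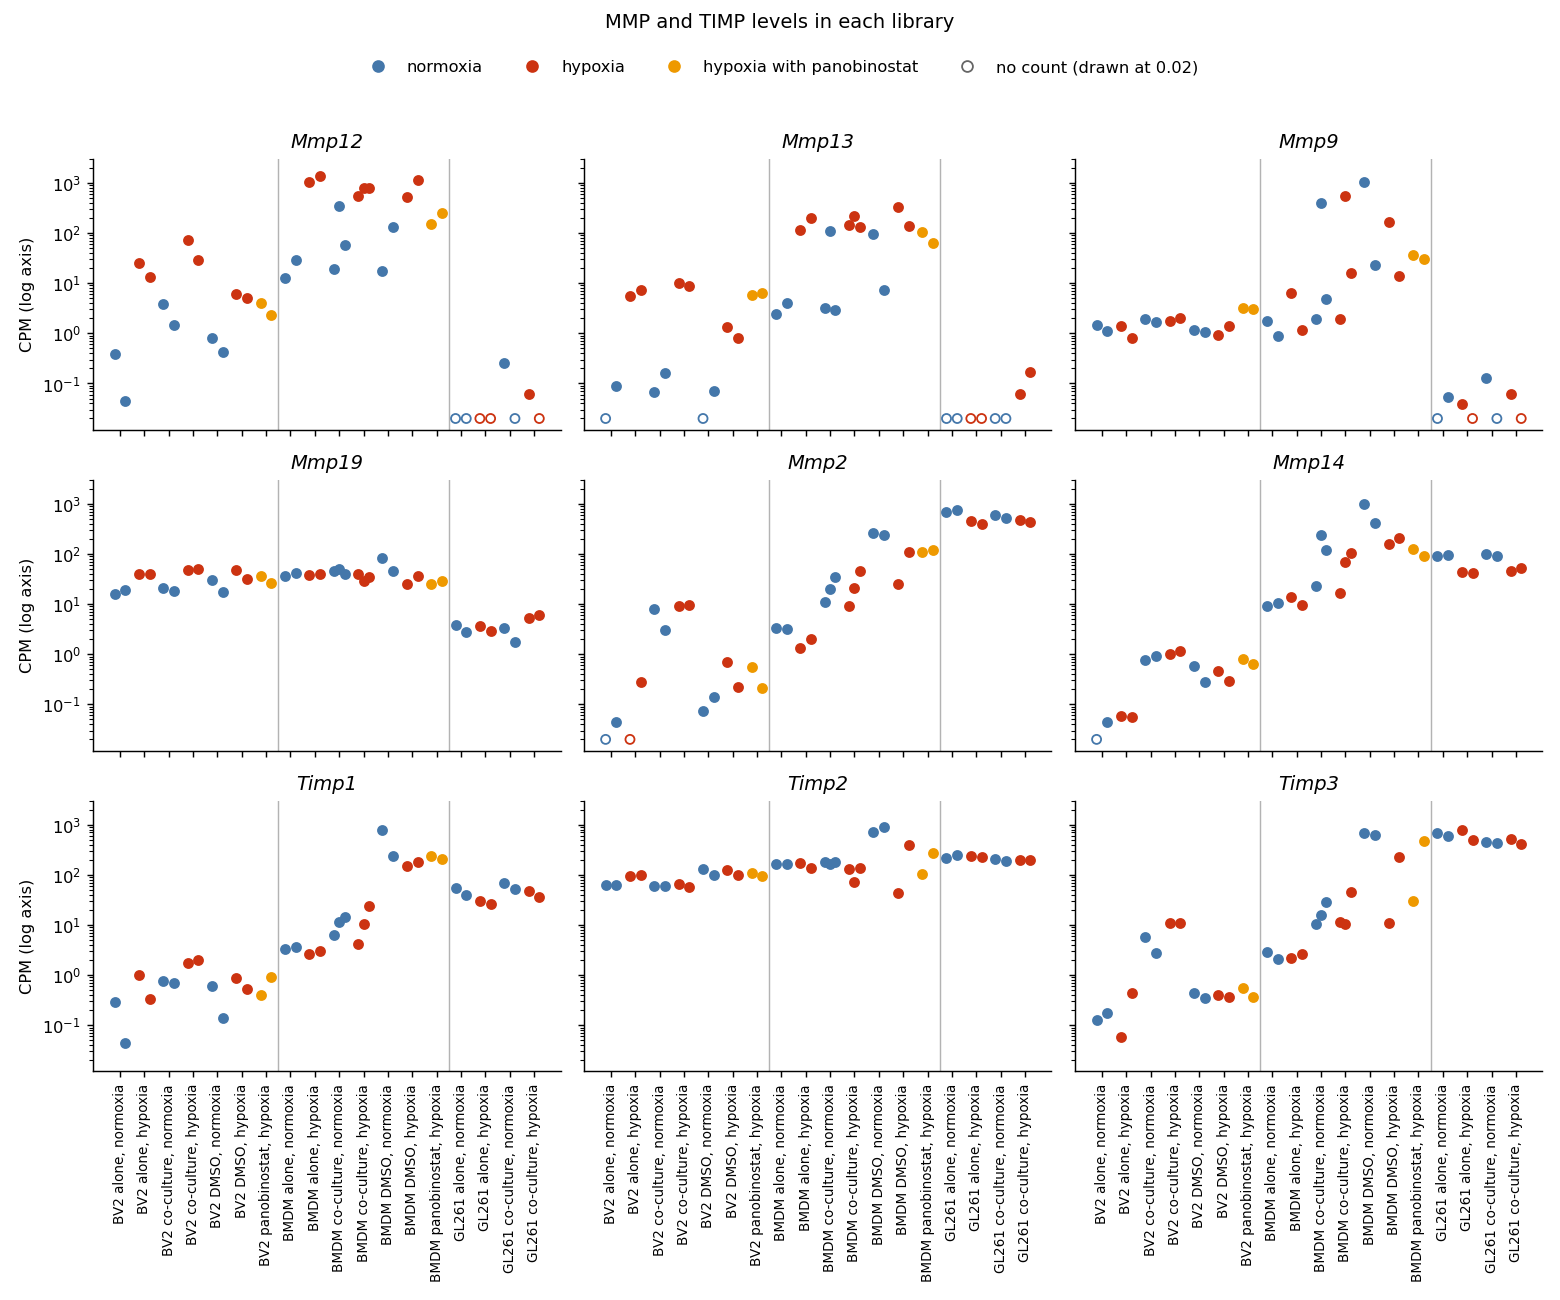
CPM (log axis) of 9 members in every library, with groups along the x axis; blue is normoxia, red hypoxia, orange hypoxia with panobinostat, and open points at 0.02 are libraries with no count. Mmp12 and Mmp13 are higher in the hypoxic than in the normoxic BV2 and BMDM libraries and near 0 in GL261, whereas Mmp2, Mmp14, Timp1 and Timp3 are high in GL261 and in the normoxic BMDM with DMSO.

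Hypoxia raised 5 of the 9 members tested in BV2 cells grown alone and lowered none, where 30.9% of all genes tested were called higher and 61.9% called in either direction. Mmp12 and Mmp13, both close to the limit of counting in normoxia, moved most, followed by Timp1, Mmp19 and Timp2. Mmp12 stood at 0.382 and 0.0445 CPM in the 2 normoxic libraries (9 counts and 1 count) and at 25.8 and 13.3 CPM in the 2 hypoxic ones. The hypoxic libraries were both far above the normoxic ones, with a log2 fold change of 6.44 ± 0.68 (SE, adjusted p = 4.91e-07). Mmp13 had 0 and 2 counts in normoxia, against 95 and 132 counts in hypoxia (5.60 and 7.24 CPM). Its ratio of pooled counts was 143, with an exact 95% counting interval of 39.3 to 1192 that covers counting error only, and its adjusted p was 6.95e-09. Mmp19, already present in normoxia, went from 15.7 and 18.9 CPM to 39.5 and 39.7 CPM, so that the groups did not overlap. This was a log2 fold change of 1.20 ± 0.13 (2.29-fold, adjusted p = 7.46e-07). Tmem198b, whose exons overlap Mmp19 on the other strand, rose over the same libraries from a mean of 7.82 to 17.7 CPM, and its part in the Mmp19 counts was not tested.

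The inhibitors Timp2 and Timp1 were also called in BV2 cells alone. Timp2 went from 62.3 and 63.1 CPM to 93.1 and 99.3 CPM, a log2 fold change of 0.62 ± 0.11 (adjusted p = 0.000118), with both hypoxic libraries above both normoxic ones. Timp1 remained low, with 7 counts and 1 count in normoxia and 17 and 6 counts in hypoxia, and the lower hypoxic library (0.329 CPM) lay just above the higher normoxic one (0.297 CPM). Its call (log2 fold change 1.88 ± 0.71, adjusted p = 0.0294) rested on single libraries: without normoxic replicate 2 the value was 1.13 (adjusted p = 0.216), and without hypoxic replicate 1 it was 0.93 (adjusted p = 0.42). Mmp9, the gelatinase B of leukocytes, held 0.823 to 1.49 CPM over these 4 libraries and was not called, with overlapping groups. Mmp2, Mmp14 and Timp3 stayed at or below 0.439 CPM and were not called, and Mmp3, the activating protease stromelysin 1, had no count in any of them.

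In BV2 cells from co-culture, hypoxia raised 6 of 9 members by edgeR, where 67.3% of genes were called and 35.2% were called higher. DESeq2 called 4 of the 9, without Mmp2 and Timp1. Mmp12 was at 3.80 and 1.44 CPM in normoxia and 72.0 and 28.6 CPM in hypoxia, a log2 fold change of 4.32 ± 0.47 (adjusted p = 6.01e-07). Mmp13 went from 1 and 3 counts to 183 and 148 counts, a ratio of 72.6 (exact 95% counting interval 28.1 to 268, adjusted p = 5.87e-09). Both genes kept their hypoxic libraries well above the normoxic ones. Mmp19 went from 21.1 and 18.0 to 48.9 and 50.05 CPM (log2 fold change 1.34 ± 0.13, adjusted p = 2.06e-07). The remaining calls were Timp3 (log2 fold change 1.38 ± 0.30, adjusted p = 0.000818), Timp1 (1.35 ± 0.50, adjusted p = 0.0254) and Mmp2 (0.84 ± 0.35, adjusted p = 0.0435). These 3 genes are high in GL261, and the share of GL261 RNA in these libraries went from a mean of 0.760% in normoxia to 2.22% in hypoxia, whose part in the calls was not tested. The Mmp2 call ended without co-culture normoxic replicate 2 (0.29, adjusted p = 0.458) or without either hypoxic library (0.79 and 0.75), and that of Timp1 ended whichever 1 of the 4 libraries was left out (adjusted p 0.0622 to 0.124).

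The DMSO groups of the panobinostat experiment gave a separate set of BV2 libraries. Mmp12 stood at 0.818 and 0.417 CPM in normoxia and 6.12 and 5.15 CPM in hypoxia, both hypoxic libraries being higher (log2 fold change 3.18 ± 0.50, adjusted p = 0.00126). Mmp13 had 0 and 1 counts in normoxia and 17 and 11 in hypoxia, a ratio of 27.1 (exact 95% counting interval 4.48 to 1109, adjusted p = 0.00307). These were 2 of 6 members tested, where 37.5% of genes were called and 17.2% called higher. Mmp19, at 30.5 and 17.7 CPM against 46.8 and 31.3 CPM, was not called (log2 fold change 0.70 ± 0.31, adjusted p = 0.103), although both hypoxic libraries were above both normoxic ones. Timp2 did not stand higher in hypoxia here, at 133 and 100 CPM in normoxia and 125 and 97.3 CPM in hypoxia, with overlapping groups.

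**Figure D2:**
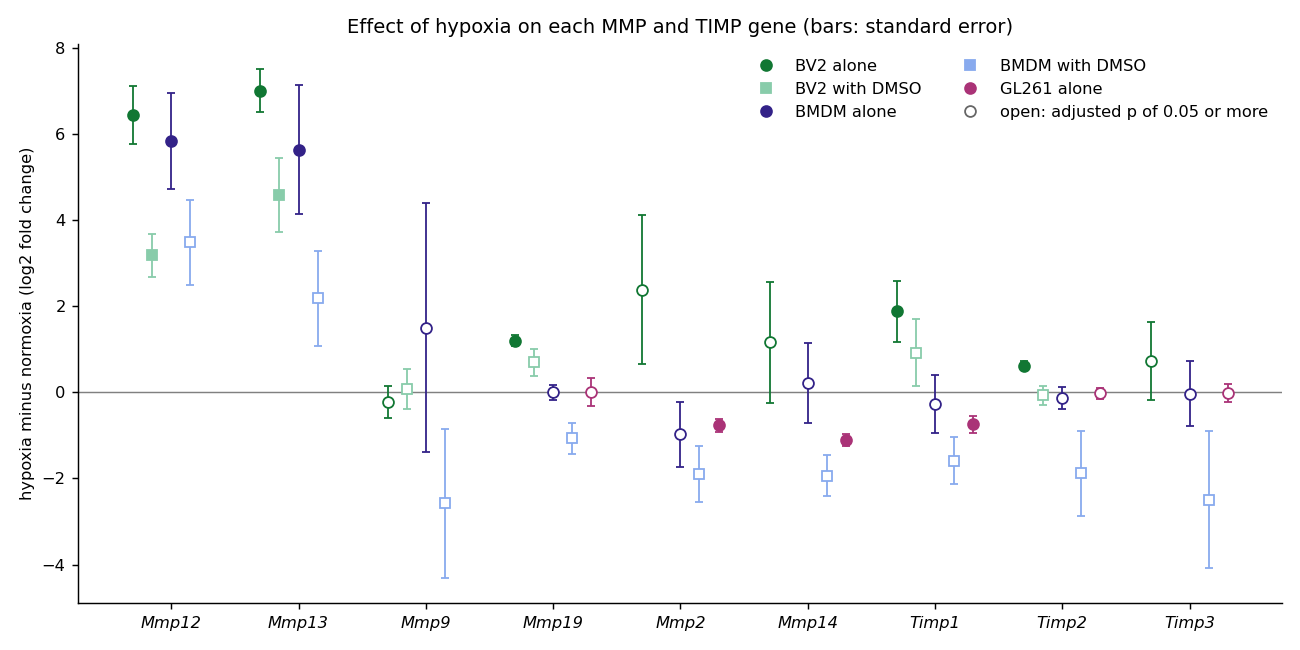
Log2 fold change of hypoxia against normoxia (y axis, bars: standard error) for 9 members (x axis) in BV2, BMDM and GL261 cells alone and in BV2 cells and BMDM with DMSO; filled symbols had an adjusted p under 0.05, and fitted values of genes with almost no normoxic counts depend on the model. Mmp12 and Mmp13 have the highest values in BV2 cells and BMDM, while all 3 called values of GL261 (Mmp14, Mmp2 and Timp1) lie below 0.

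In GL261 cells alone the direction was the opposite one: 3 of 6 members tested fell and none rose, where 21.4% of genes were called lower and 44.6% called in all. Mmp14 went from 89.2 and 95.9 CPM in normoxia to 43.7 and 42.1 CPM in hypoxia, and both hypoxic libraries lay below the normoxic ones. It fell by 1.11 on the log2 scale (SE 0.13, 2.16-fold, adjusted p = 6.35e-05). Mmp2, which MMP14 activates, went from 680 and 762 CPM to 446 and 401 CPM, again without overlap, and fell by 0.77 (SE 0.14, adjusted p = 0.00137). Timp1 went from 54.5 and 40.3 CPM to 30.01 and 26.5 CPM and fell by 0.75 (SE 0.20, adjusted p = 0.00922), with both hypoxic libraries the lowest. Without normoxic replicate 1 the Timp1 value was -0.51 and no longer called (adjusted p = 0.103). Timp2 (218 to 252 CPM), Timp3 (493 to 770 CPM) and Mmp19 (2.83 to 3.78 CPM) had overlapping groups and were not called. The mean of Tmem198b, which overlaps Mmp19, went from 44.4 to 23.0 CPM over these libraries. Mmp12, Mmp13 and Mmp3 had no count in any of the 4 libraries of GL261 alone, and Mmp9 had at most 1 count.

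In GL261 cells from co-culture, Mmp14 and Timp1 fell in hypoxia as well, while Mmp19 rose. Mmp14 went from 100.0 and 91.1 CPM to 44.8 and 52.2 CPM and fell by 0.98 (SE 0.13, adjusted p = 8.59e-05), with no overlap. Timp1 went from 70.0 and 52.1 CPM to 46.8 and 35.9 CPM and fell by 0.56 (SE 0.19, adjusted p = 0.0298), but without normoxic replicate 1 (-0.33, adjusted p = 0.286) or hypoxic replicate 2 (-0.36, adjusted p = 0.213) it was not called. Mmp2, at 610 and 517 CPM against 471 and 437 CPM, did not pass the threshold (log2 fold change -0.31 ± 0.14, adjusted p = 0.0881). Mmp19 rose from 3.38 and 1.78 CPM to 5.17 and 6.06 CPM (log2 fold change 1.13 ± 0.33, adjusted p = 0.0135). That call ended without normoxic replicate 2 (0.77, adjusted p = 0.123) or hypoxic replicate 2 (1.03, adjusted p = 0.0552). These were 3 of 6 members tested, where 26.8% of genes were called higher, 25.6% lower and 52.4% in all. Tmem198b, on the other strand from Mmp19, went from a mean of 45.1 to 23.8 CPM over the same libraries, the opposite way.

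The difference between the BV2 and GL261 responses was tested as an interaction in a joint fit of the 16 libraries, where 37.4% of genes were called, 18.7% of all tested with the higher value in BV2, and the median over all genes was 0.15. It was called for 3 of 9 members, all higher in BV2: Timp1 (2.72 ± 0.72, adjusted p = 0.00589), Mmp19 (1.29 ± 0.31, adjusted p = 0.00261) and Timp2 (0.74 ± 0.16, adjusted p = 0.00114). Timp1 rose in BV2 from a very low level and fell in GL261 from a high one, and its difference was not called without BV2 normoxic replicate 2 (1.89, adjusted p = 0.0554) or BV2 hypoxic replicate 1 (1.76, adjusted p = 0.188). For Mmp12 and Mmp13, absent from GL261, no such difference can be estimated. In hypoxia Mmp12 was at least 284-fold and Mmp13 at least 94.8-fold higher in BV2 than in GL261, against a floor of 3 counts over the GL261 group. In normoxia 7 of 9 members differed between the lines (33.8% of genes were higher and 39.4% lower in BV2, 73.2% in all), and in hypoxia 9 of 9 (35.3%, 41.2% and 76.6%). In normoxia Mmp2, Mmp14, Timp1, Timp2 and Timp3 were higher in GL261 and Mmp9 and Mmp19 higher in BV2.

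BMDM alone shared the rise of Mmp12 and Mmp13 at higher levels. Mmp12 went from 12.7 and 29.6 CPM in normoxia to 1028 and 1389 CPM in hypoxia, with both hypoxic libraries far above the normoxic ones (log2 fold change 5.84 ± 1.12, 57.2-fold, adjusted p = 0.00452). Mmp13 went from 2.41 and 3.96 CPM to 113 and 203 CPM, again without overlap (5.64 ± 1.51, 49.8-fold, adjusted p = 0.0207). These were 2 of 9 members tested, where 13.3% of genes were called higher and 23.9% in all. Neither call held through every omission of a library: Mmp12 had an adjusted p of 0.0552 without normoxic replicate 1 (5.29), and Mmp13 was not called without normoxic replicate 1 (5.25, adjusted p = 0.145), normoxic replicate 2 (5.95, adjusted p = 0.109) or hypoxic replicate 2 (5.14, adjusted p = 0.0781). The Wald test of DESeq2 gave no adjusted p for Mmp9, Mmp12 and Mmp13 and called 0 of the other members. Timp1, at 3.34 and 3.59 CPM in normoxia and 2.69 and 3.04 CPM in hypoxia, was lower in both hypoxic libraries and not called (adjusted p = 0.810), as was Mmp2, at 3.39 and 3.15 CPM against 1.31 and 2.00 CPM (adjusted p = 0.381). Mmp19 (37.0 to 41.1 CPM) and Timp3 (2.14 to 2.84 CPM) had overlapping groups. Timp2 stood at 167 and 167 CPM in normoxia and 171 and 135 CPM in hypoxia, and Mmp14 at 9.35 to 13.7 CPM over the 4 libraries.

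In BMDM from co-culture the normoxic libraries differed widely. Mmp12 stood at 19.3, 340 and 57.3 CPM in normoxic replicates 1, 2 and 3 and at 558, 783 and 798 CPM in hypoxia, so that all 3 hypoxic libraries were higher (log2 fold change 2.36 ± 0.78, adjusted p = 0.0358). Mmp13 stood at 3.27, 109 and 2.89 CPM in normoxia and 144, 223 and 134 CPM in hypoxia. All 3 hypoxic libraries were again above the normoxic ones, of which replicate 2 alone was above 4 CPM, and the gene was not called (2.11 ± 1.01, adjusted p = 0.129). With the replicate number as a block, Mmp13 was called (3.31, adjusted p = 0.0122), as it was without normoxic replicate 2 (5.75, adjusted p = 2.46e-05) and without both replicate 2 libraries (5.47, adjusted p = 1.58e-05). Timp2 went from 183, 165 and 178 CPM to 130, 72.1 and 135 CPM, with no overlap, and fell by 0.64 (SE 0.21, adjusted p = 0.0342). Mmp12 and Timp2 were 2 of 9 members tested, 1 higher and 1 lower, where 17.5% of genes were called higher, 17.3% lower and 34.8% in all. Fitted on the compared groups alone, neither was called (adjusted p 0.0628 for Mmp12 and 0.0748 for Timp2). Mmp12 was also lost without normoxic replicate 3 (1.99, adjusted p = 0.11), hypoxic replicate 2 (2.27, adjusted p = 0.0663) or hypoxic replicate 3 (2.28, adjusted p = 0.07), and Timp2 without normoxic replicate 1 or 3. Mmp19, at 45.8, 49.3 and 40.1 CPM against 39.6, 28.4 and 35.0 CPM, was lower in every hypoxic library and missed the threshold (-0.39 ± 0.14, adjusted p = 0.0527).

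Co-culture with GL261 cells was followed by higher levels of GL261-rich members in the BV2 libraries. Of 9 members tested, 4 were higher and 0 lower in normoxia, where 14.9% of genes were called and 5.77% called higher. In hypoxia 4 were higher and 1 lower, where 8.13% of genes were called higher, 7.57% lower and 15.7% in all. Mmp2 went from 0 and 0.0445 CPM in BV2 alone to 7.81 and 2.98 CPM in normoxic co-culture (ratio of pooled counts 242, exact 95% counting interval 42.9 to 9626, adjusted p = 3.38e-05). In hypoxia it went from 0 and 0.274 CPM to 9.29 and 9.67 CPM (adjusted p = 5.11e-06). Both co-culture libraries were above both monoculture libraries at each oxygen level. Timp3 behaved alike, from 0.127 and 0.178 CPM to 5.80 and 2.77 CPM in normoxia (log2 fold change 4.73 ± 0.53, adjusted p = 4.67e-05) and from 0.0589 and 0.439 CPM to 11.1 and 10.8 CPM in hypoxia (5.39 ± 0.46, adjusted p = 9.28e-07). Mmp14 went from at most 1 count per library alone to 0.760 and 0.906 CPM in normoxia (ratio 40.1, interval 6.64 to 1642, adjusted p = 0.00149) and 1.00 and 1.17 CPM in hypoxia (ratio 18.9, interval 4.89 to 162, adjusted p = 0.000908). Timp1 was not called in either (adjusted p = 0.0639 and 0.0562).

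GL261 transcripts that BV2 cells lack give a measure of how much GL261 RNA was in those libraries. Over 228 such genes the median share was 0.951% and 0.569% in the normoxic and 2.07% and 2.37% in the hypoxic BV2 co-culture libraries. Multiplied by the level in GL261 alone, these shares gave 7.12 and 4.27 CPM of Mmp2 in normoxia, beside an observed excess over BV2 alone of 8.32 and 3.05 CPM (CPM not TMM-scaled). In hypoxia they gave 8.78 and 10.0 CPM, beside 8.88 and 9.23 CPM. For Timp3 the products were 6.31, 3.78, 13.0 and 14.9 CPM and the excess 6.05, 2.69, 10.6 and 10.2 CPM over the same 4 libraries. For Mmp14 they were 0.914, 0.547, 0.891 and 1.02 CPM, beside 0.789, 0.909, 0.917 and 1.07 CPM. The excess was above the product in some libraries and below it in others for Mmp2 and Mmp14, and below it in all 4 for Timp3. The part of GL261 RNA in their calls was not tested. Timp1 was above its product in all 4 libraries, with an excess of 0.641, 0.541, 1.03 and 1.27 CPM against 0.466, 0.279, 0.585 and 0.668 CPM. That excess was 1.31%, 1.10%, 3.64% and 4.50% of the Timp1 level in GL261 alone. The 95th percentile of the share over the 228 genes was 1.64%, 1.05%, 3.80% and 4.14% in the same libraries. In a bulk library, fewer cells of a type and less RNA per cell cannot be told apart.

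Mmp12 differed from these, since GL261 cells alone had no count of it. It went from 0.382 and 0.0445 CPM in BV2 alone to 3.80 and 1.44 CPM in normoxic co-culture (log2 fold change 3.49 ± 0.93, adjusted p = 0.0205). In hypoxia it went from 25.8 and 13.3 CPM to 72.0 and 28.6 CPM (1.37 ± 0.36, adjusted p = 0.0164). Both co-culture libraries were above the monoculture libraries at each oxygen level. The normoxic call ended without monoculture replicate 2 (2.68, adjusted p = 0.142) or co-culture replicate 1 (2.69, adjusted p = 0.124). The hypoxic call ended without monoculture replicate 2 (0.91, adjusted p = 0.157), without co-culture replicate 1 (0.48, adjusted p = 0.382) and in DESeq2 (adjusted p = 0.413). Timp2 fell with co-culture in hypoxia, from 93.1 and 99.3 CPM to 64.4 and 57.4 CPM (by 0.66 on the log2 scale, SE 0.11, adjusted p = 0.0006), so its hypoxic level in co-culture was close to the normoxic 60.0 and 60.3 CPM. As an interaction of co-culture with hypoxia the Timp2 difference just missed the threshold (-0.60 ± 0.15, adjusted p = 0.0543) and that of Mmp12 was also not called (-2.12 ± 1.07, adjusted p = 0.284). Of the 9 members, 0 were called for this interaction by edgeR (2.19% of genes were), 1 had an unadjusted p under 0.05 and DESeq2 called 1. The Timp2 interaction was called by DESeq2 (-0.62, adjusted p = 0.0151), with no filter (-0.70, adjusted p = 0.00843), with genes kept at a mean of 5 CPM (-0.67, adjusted p = 0.0348) and without co-culture hypoxic replicate 1 (-0.79, adjusted p = 0.0232).

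**Figure D3:**
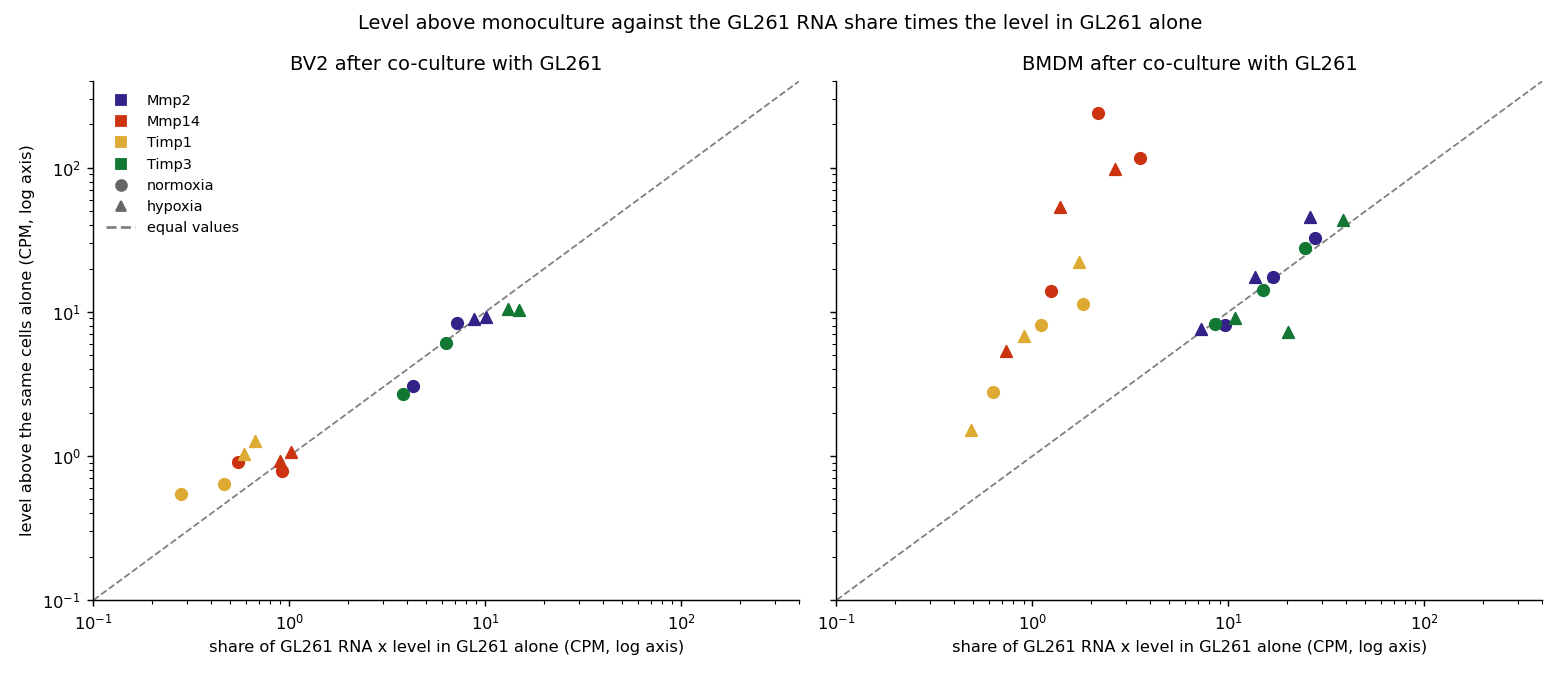
For Mmp2, Mmp14, Timp1 and Timp3 in each co-culture library of BV2 (left) and BMDM (right), the level above the same cells alone (y axis, CPM, log) against the GL261 RNA share times the level in GL261 alone (x axis, CPM, log); circles are normoxia, triangles hypoxia, and the dashed line marks equal values. Mmp14 and Timp1 lie above the line in every BMDM library, and Timp3 lies farthest below it in hypoxic BMDM replicate 2, at 7.24 against 20.2 CPM.

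In BMDM, co-culture gave fewer calls with a wider spread. In normoxia edgeR called 0 of 9 members (1.64% of genes), while 7 had an unadjusted p under 0.05 and DESeq2 called 3. The shares of all genes at that unadjusted p and by DESeq2 are not given, so these counts cannot set the members apart. In hypoxia 2 were called, both higher (4.06% of genes were called higher and 7.11% in all): Mmp2, from 1.31 and 2.00 CPM alone to 9.33, 20.6 and 46.1 CPM (log2 fold change 3.93 ± 0.71, adjusted p = 0.0128), and Timp3, from 2.18 and 2.69 CPM to 11.6, 10.3 and 45.0 CPM (3.19 ± 0.70, adjusted p = 0.0251). All co-culture libraries lay above those alone. Leaving out either monoculture library ended both calls, with values of 3.66 and 4.27 for Mmp2 and 3.05 and 3.34 for Timp3 (adjusted p 0.12 to 0.189). The GL261 share over 144 genes was 1.29%, 2.26% and 3.69% in normoxia and 1.71%, 3.22% and 6.14% in hypoxia. It gave 7.26, 13.6 and 26.0 CPM of Mmp2 in the hypoxic libraries, beside an excess of 7.57, 17.4 and 45.5 CPM. It gave 10.8, 20.2 and 38.5 CPM of Timp3, beside 9.11, 7.24 and 43.7 CPM.

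Mmp14 stood above that share in every BMDM co-culture library. BMDM alone had 9.35 and 10.7 CPM in normoxia, and co-culture replicates 1, 2 and 3 had 23.4, 242 and 121 CPM. The excess of 13.9, 242 and 116 CPM compared with products of 1.24, 2.169 and 3.54 CPM. In hypoxia BMDM alone had 13.7 and 9.66 CPM and the co-culture libraries 16.3, 69.8 and 106 CPM. Every co-culture library was above every monoculture library, and the test did not call the gene in normoxia (log2 fold change 3.68 ± 0.93, adjusted p = 0.082) or in hypoxia (2.46 ± 0.89, adjusted p = 0.119). DESeq2 called it in normoxia (adjusted p = 0.00864), and edgeR did so without co-culture replicate 1, in normoxia (4.18, adjusted p = 0.0182) and in hypoxia (2.93, adjusted p = 0.0325). Timp1 also stood above its product in every BMDM co-culture library: the excess was 2.80, 8.12 and 11.4 CPM in normoxia beside 0.631, 1.11 and 1.81 CPM, and 1.51, 6.85 and 22.3 CPM in hypoxia beside 0.484, 0.909 and 1.73 CPM. It was not called in either (adjusted p = 0.276 in normoxia and 0.0599 in hypoxia). The fibroblast markers summed to 72.7, 123 and 211 CPM in these normoxic and 70.8, 179 and 595 CPM in these hypoxic libraries. In GL261 cells they summed to 569 to 939 CPM, mainly Col1a1 and Col3a1, with Col1a2 at means of at most 0.412 CPM. Col1a2 had means of 24.6 and 61.1 CPM in normoxic and hypoxic BMDM from co-culture, and 33.5 and 50.8 CPM in BMDM alone. The part of these markers in the Mmp14 and Timp1 levels was not tested.

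Mmp9 differed widely between replicate libraries of BMDM. It stood at 1.97, 391 and 4.81 CPM in the normoxic co-culture replicates 1, 2 and 3 and at 1.91, 550 and 15.7 CPM in the hypoxic ones, against 0.881 to 6.47 CPM in BMDM alone. Replicate 2 was the high one at both oxygen levels, and the co-culture libraries overlapped those of BMDM alone in hypoxia but not in normoxia. The fitted co-culture effect of 6.63 ± 2.84 in normoxia (adjusted p = 0.352) and 5.64 ± 2.62 in hypoxia (adjusted p = 0.22) was not called. The normoxic replicate 2 library was also the highest of its group for Mmp12, Mmp13, Mmp14 and Mmp3, with 16 counts of Mmp3 against 0 in replicates 1 and 3. It had 19.5 CPM (not TMM-scaled) summed over 8 neutrophil markers, where the other BMDM libraries of this experiment had at most 0.908 CPM. S100a8 carried nearly all of that sum, at 18.4 CPM with TMM scaling. Elane (0.198 CPM) and Camp (0.066 CPM) were the others detected, and S100a9, Ly6g, Mpo, Retnlg and Ltf were at 0. The part of neutrophil RNA in the Mmp9 level was not tested. In the hypoxic replicate 2 library the same sum was 0.752 CPM with 550 CPM of Mmp9.

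For co-culture in GL261 cells, edgeR called none of the 6 members tested at either oxygen level. Of all genes, 0.514% were called in normoxia and 1.39% in hypoxia. DESeq2 also called 0 in both, and 2 and 3 members had an unadjusted p under 0.05. The median share of BV2 RNA, over 121 BV2-specific genes, was 0.915% and 0.630% in the normoxic and 0.256% and 0.218% in the hypoxic libraries. Mmp12, absent from GL261 alone, had 4 and 0 counts in normoxic and 1 and 0 counts in hypoxic co-culture, and Mmp13 had 0 in normoxia and 1 and 3 counts in hypoxia. The interaction of co-culture with hypoxia called 0 of 6 members (0% of genes, 2 members at an unadjusted p under 0.05, 0 by DESeq2), with values of 1.12 ± 0.46 for Mmp19 (adjusted p = 0.549) and 0.46 ± 0.20 for Mmp2 (adjusted p = 0.56). In BMDM the same interaction called 0 of 9 (0% of genes, 1 at an unadjusted p under 0.05, 0 by DESeq2). Mmp12, whose normoxic libraries spread from 19.3 to 340 CPM, had a value of -3.48 ± 1.22 (adjusted p = 1).

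The BMDM of the panobinostat experiment carried a different MMP and TIMP profile from the start. In normoxia with DMSO, all 9 members tested were higher than in BV2 with DMSO, where 27.1% of genes were called higher and 44.2% in all. The BMDM were kept in 10% serum and the BV2 cells in 2%, so cell kind and serum cannot be told apart here. Timp1 stood at 769 and 238 CPM, against 3.34 and 3.59 CPM in normoxic BMDM of the co-culture experiment. Timp3 stood at 692 and 619 CPM against 2.84 and 2.14 CPM, Mmp2 at 261 and 243 CPM against 3.39 and 3.15 CPM, and Mmp14 at 996 and 420 CPM against 9.35 and 10.7 CPM. These 4 genes were thus higher in both libraries than in the earlier BMDM, a comparison across experiments that was not tested. The 2 libraries with these levels were also those with the highest sums of the 7 fibroblast markers, 23239 and 20456 CPM against 133 and 170 CPM in normoxic BMDM alone. Collagen genes made up most of the sum, with Col1a1 at a mean of 13272 CPM, while Dcn and Lum, also on the list, were at 2.94 and 0.0365 CPM. All 12 myeloid markers were detected in them, summing to 10743 and 7345 CPM. The part of the fibroblast markers in the MMP and TIMP levels was not tested.

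**Figure D4:**
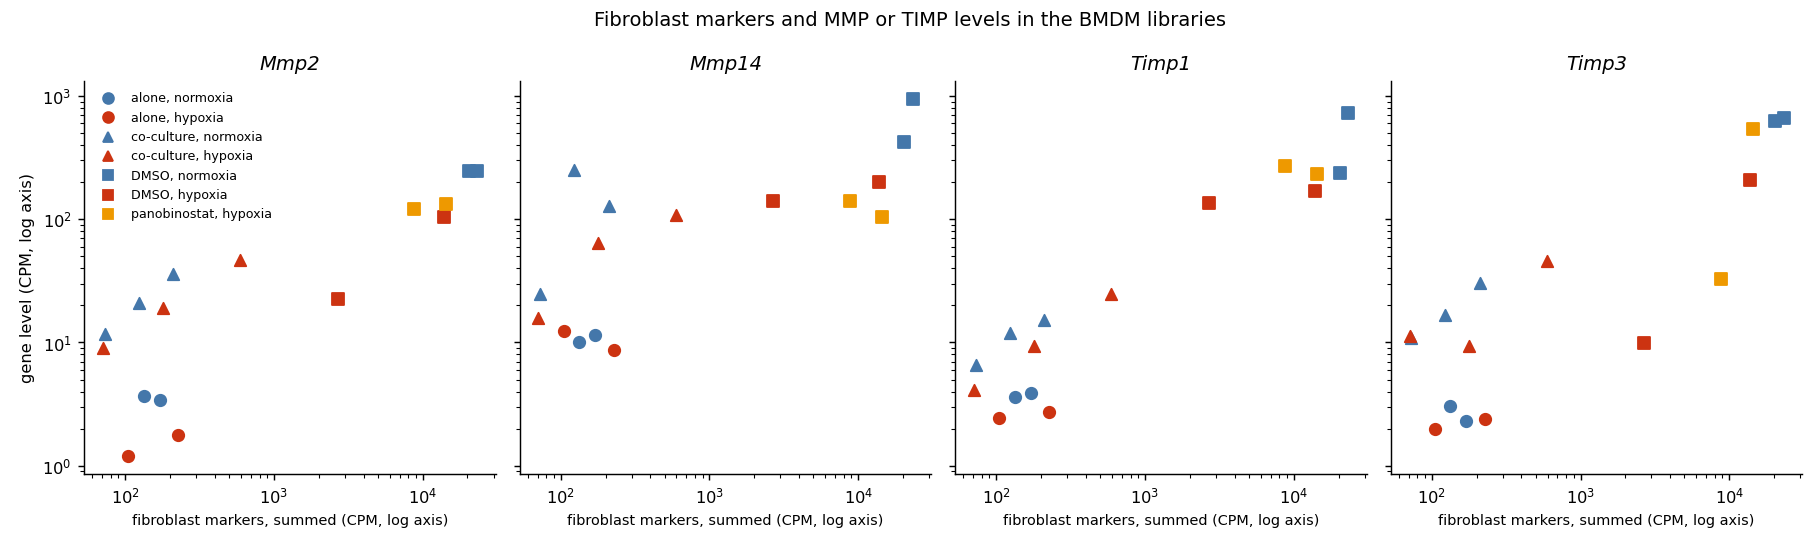
Levels of Mmp2, Mmp14, Timp1 and Timp3 (y axis, CPM, log) against the summed CPM of 7 fibroblast markers (x axis, log) in all 16 BMDM libraries; colours give oxygen or panobinostat, symbols the experiment. The 6 libraries of the panobinostat experiment lie to the right, from 2674 CPM of marker sum upward, and mostly hold the highest values of the 4 genes.

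Within that experiment hypoxia again went with high Mmp12 in BMDM. Mmp12 stood at 17.4 and 131 CPM in normoxia and 527 and 1131 CPM in hypoxia, both hypoxic libraries being higher, and was not called by edgeR (log2 fold change 3.48 ± 0.99, adjusted p = 0.112). Mmp13, at 95.9 and 7.24 CPM against 331 and 137 CPM, did not overlap either and was not called (2.18 ± 1.11, adjusted p = 0.264). Mmp14 went the other way, from 996 and 420 CPM to 158 and 212 CPM (-1.94 ± 0.48, adjusted p = 0.0946), as did Timp2, from 710 and 885 CPM to 44.1 and 390 CPM (-1.88 ± 0.99, adjusted p = 0.279), and Timp3, from 692 and 619 CPM to 11.2 and 222 CPM (-2.49 ± 1.59, adjusted p = 0.356). Their groups did not overlap. Timp1, Mmp2 and Mmp19 were also lower in both hypoxic libraries than in both normoxic ones. Timp1 had a mean of 567 CPM per kb in normoxia and 189 in hypoxia, Mmp2 74.9 and 20.1, and Mmp19 18.2 and 8.66. Fibroblast markers summed to 23239 and 20456 CPM in the normoxic and 2674 and 13841 CPM in the hypoxic libraries, and the lower of the hypoxic libraries was the one with the lower Timp2, Timp3 and Mmp2. EdgeR called 0 of 9 members (0.483% of genes were called), 5 had an unadjusted p under 0.05, and DESeq2 called 4, among them Mmp12 (adjusted p = 0.0014) and Mmp14 (adjusted p = 0.00214). On simulated data this edgeR test recovered a fraction of 0.364 of 4-fold changes, so its lack of calls cannot show that members stayed unchanged. The hypoxia effects of BMDM and BV2 with DMSO were not told apart for any member by edgeR (0 of 9, 0.664% of genes, 3 at an unadjusted p under 0.05, 2 by DESeq2).

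Panobinostat in hypoxia raised Mmp13 in BV2 cells. The gene went from 1.33 and 0.821 CPM with DMSO to 5.95 and 6.26 CPM with panobinostat, both treated libraries being higher (log2 fold change 2.50 ± 0.47, 5.64-fold, adjusted p = 0.00984). It was the only called member of 6 tested, where 14.6% of genes were called and 7.21% called higher, and it was not called without panobinostat replicate 1 (2.53, adjusted p = 0.0618) or replicate 2 (2.46, adjusted p = 0.0578). Mmp9 was at 0.942 and 1.42 CPM with DMSO and 3.22 and 3.09 CPM with panobinostat, without overlap, and just missed the threshold (1.41 ± 0.43, adjusted p = 0.0561). It was called on the compared groups alone (adjusted p = 0.048) and with no filter (adjusted p = 0.0394), and not by DESeq2 (adjusted p = 0.113). Mmp12, the neighbour of Mmp13, went the other way, from 6.12 and 5.15 CPM to 4.02 and 2.30 CPM (-0.84 ± 0.42, adjusted p = 0.204), and was not called although the groups did not overlap. Timp2, at 125 and 97.3 CPM against 108 and 93.7 CPM, and Mmp19, at 46.8 and 31.3 CPM against 36.1 and 26.6 CPM, overlapped.

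In hypoxic BMDM, panobinostat gave 0 calls among 9 members by edgeR (0% of all genes), 0 at an unadjusted p under 0.05 and 0 by DESeq2. Mmp12 was at 527 and 1131 CPM with DMSO and 151 and 250 CPM with panobinostat, lower in both libraries (log2 fold change -2.04 ± 0.93, adjusted p = 0.228). Mmp13 was at 331 and 137 CPM with DMSO and 105 and 64.0 CPM with panobinostat, also lower in both (-1.47 ± 1.08, adjusted p = 0.431). Over the same libraries the myeloid markers summed to 3900 and 5112 CPM with DMSO and 982 and 2378 CPM with panobinostat, a decline whose part in the lower Mmp12 and Mmp13 was not tested. The fibroblast markers summed to 2674 and 13841 CPM and to 8767 and 14390 CPM. Mmp13 thus stood higher with panobinostat in BV2 and lower in BMDM, and the difference between the 2 effects was not called (-3.96 ± 1.36, adjusted p = 0.339). EdgeR called 0 of 9 members for that difference (0.0251% of genes), 1 had an unadjusted p under 0.05, and DESeq2 called 0.

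Summed per kilobase of exon, the 7 MMP members and the 3 TIMP members changed their balance with oxygen in the myeloid cells grown alone. The MMP sum was 0.300 and 0.352 of the TIMP sum in normoxic BV2 alone and 0.689 and 0.621 in hypoxia. In BMDM alone the ratio was 0.345 and 0.427 in normoxia and 4.23 and 7.33 in hypoxia. In GL261 alone it was 1.07 and 1.34 in normoxia and 0.748 and 0.850 in hypoxia. In all 3 the hypoxic and normoxic libraries did not overlap, higher in hypoxia for BV2 and BMDM and lower for GL261. In BMDM from co-culture the groups overlapped, at 0.446, 4.55 and 0.798 in normoxia and 3.76, 11.9 and 3.05 in hypoxia. In BV2 from co-culture the ratio was 0.560 and 0.413 against 1.56 and 1.36 in hypoxia. With DMSO it was also higher in hypoxia without overlap, in BV2 and in BMDM. No test was run on this ratio, which says nothing of protein. Of the summed signal in BMDM alone, Mmp12 took 4.48% in normoxia and 58.9% in hypoxia, Mmp13 1.83% and 20.8%, and Timp2 65.7% and 13.9%. In GL261 alone Mmp2 took 50.6% and 41.5%.

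**Figure D5:**
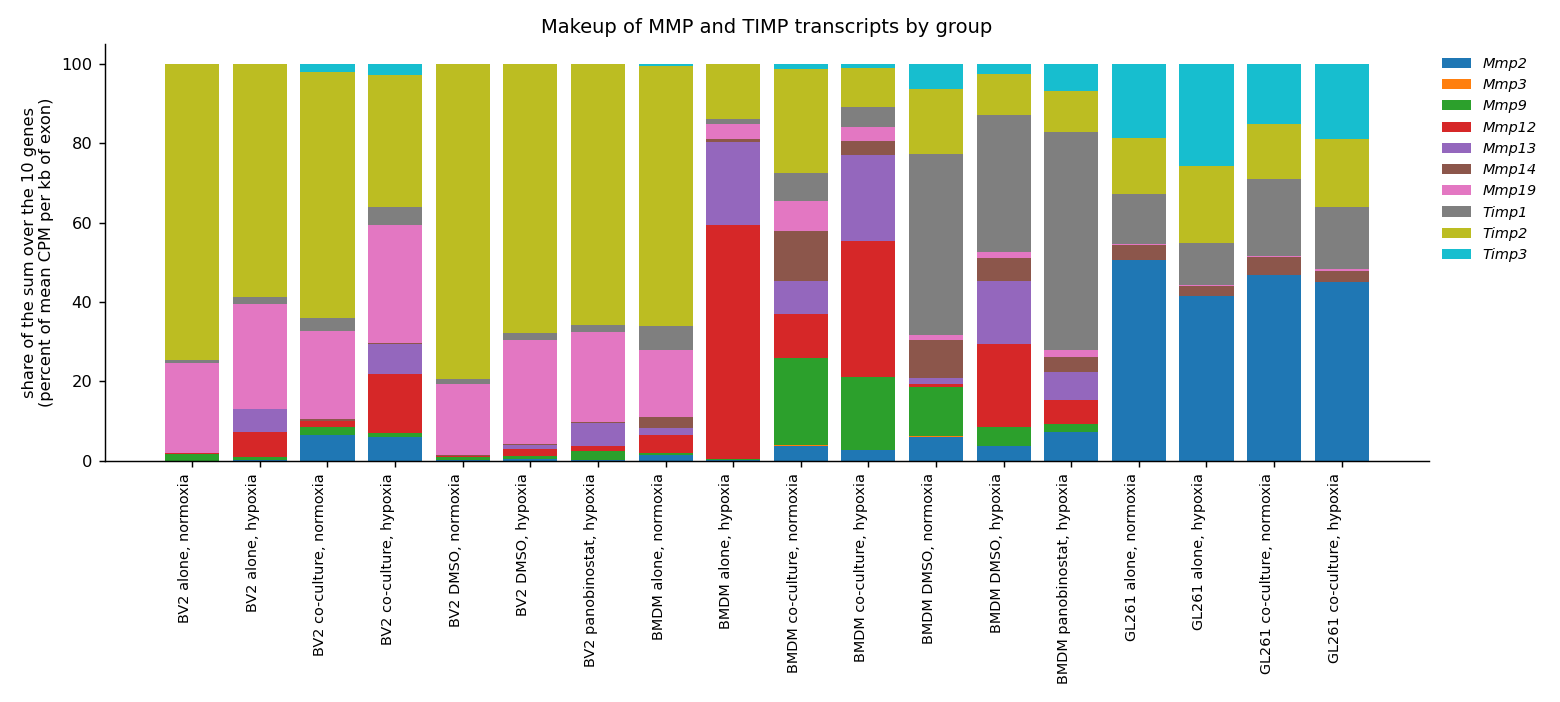
Share of each member (y axis, percent of the sum over the 10 genes of mean CPM per kb of exon) in the 18 groups (x axis), as stacked bars with no error shown. Timp2 is the main part in BV2 groups (74.4% in normoxic BV2 alone), Mmp2 in GL261 groups (50.6%), and Mmp12 in hypoxic BMDM alone (58.9%).

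The family has 17 further MMP and TIMP genes, of which 11 reached a mean of 1 CPM in some group. In hypoxic GL261 alone all 7 of those tested were called, 3 higher and 4 lower, where 44.6% of all genes were called and 21.4% called lower. Mmp28, a secreted MMP also called epilysin, went from 11.8 and 10.7 CPM to 51.2 and 46.3 CPM (log2 fold change 2.12 ± 0.14), with Mmp23 (1.54 ± 0.31) and Mmp11, stromelysin 3 (1.40 ± 0.22), also higher. Those that fell were Timp4, the fourth inhibitor, from 94.7 and 86.1 CPM to 27.0 and 22.5 CPM (by 1.87, SE 0.14), and the membrane-anchored Mmp15 (by 1.60, SE 0.17), Mmp16 (by 1.35, SE 0.30) and Mmp17 (by 0.62, SE 0.17). Without normoxic replicate 2, Mmp16 (-0.86, adjusted p = 0.0579) and Mmp17 (-0.43, adjusted p = 0.104) were not called, nor was Mmp17 without hypoxic replicate 2 (-0.53, adjusted p = 0.0585).

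In BMDM alone, 4 of 10 tested family genes rose in hypoxia and 0 fell, where 13.3% of all genes were called higher and 23.9% in all. Mmp10 and Mmp27 lie in the chromosome 9 cluster with Mmp12 and Mmp13. Mmp10, stromelysin 2, went from 1 count in each normoxic library to 65 and 98 counts in hypoxia, a ratio of 82.5 (exact 95% counting interval 22.5 to 687, adjusted p = 0.0117). Mmp27 went from 1.64 and 2.01 CPM to 13.2 and 13.5 CPM (log2 fold change 2.87 ± 0.87, adjusted p = 0.0344). Mmp28 (2.33 ± 0.63) and Mmp11 (1.68 ± 0.54) were the other two. Each of the 4 calls was lost on leaving out single libraries: for Mmp11, Mmp27 and Mmp28 any 1 of the 4 (adjusted p 0.0709 to 0.220), and for Mmp10 either normoxic library or hypoxic replicate 2 (adjusted p 0.0535 to 0.0994). Mmp3, between Mmp12 and Mmp10 on the chromosome, had no count in the 4 libraries of BMDM alone. Over all 38 libraries Mmp3 had no count in 31, and its highest level was 7.01 CPM in the normoxic DMSO replicate 1 library of BMDM, which also had the highest Mmp9 (1065 CPM).

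In BV2 alone Mmp23 was the single family gene called of 7 tested in hypoxia (61.9% of all genes were called and 30.9% called higher), from 0.637 and 0.534 CPM to 5.95 and 4.01 CPM (log2 fold change 3.07 ± 0.31). In BV2 from co-culture, Mmp15, Mmp17, Timp4 and Mmp11 were higher than in BV2 alone at both oxygen levels and Mmp28 in hypoxia. These were 4 of 7 called in normoxia, where 5.77% of all genes were called higher, and 5 of 7 in hypoxia, where 8.13% were. The Mmp11 call in normoxia ended without either monoculture library or co-culture replicate 1 (adjusted p 0.0907 to 0.232), and that of Mmp28 without monoculture replicate 1 or co-culture replicate 2 (adjusted p 0.0847 and 0.0790). In normoxic GL261 alone these 5 genes stood at means of 413, 344, 90.4, 35.1 and 11.2 CPM, and in normoxic BV2 alone at 0.0435 CPM or less. With panobinostat, Mmp28 was the 1 family gene of 3 tested that was called in BV2, where 7.21% of all genes were called higher (29 against 3 counts, ratio 10.3, exact 95% counting interval 3.21 to 53.1, adjusted p = 0.0202). It was not called by DESeq2 or on leaving out any 1 of the 4 libraries (adjusted p 0.0816 to 0.154).

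Other genes that act on MMPs were counted by list. The shares of all genes called in hypoxia were 61.9% in BV2 alone (30.9% higher), 23.9% in BMDM alone (13.3% higher) and 44.6% in GL261 alone (21.4% lower). Of the plasminogen activation genes, whose product plasmin activates several pro-MMPs, 5 of 8 tested rose in hypoxic BV2 alone and 0 fell, with a median log2 fold change of 1.25 against 0 over all genes. In BMDM alone 3 of 10 rose and 0 fell (median 1.12 against 0.03), and in GL261 alone 1 of 7 rose and 1 fell. Of surface and activation regulators of MMPs, 5 of 10 rose and 2 fell in BV2, 2 of 12 rose and 1 fell in BMDM, and 1 of 13 rose and 3 fell in GL261. Bsg, the surface glycoprotein basigin known as an inducer of MMPs, rose in BV2 (log2 fold change 1.85 ± 0.13) and BMDM (1.75 ± 0.20), and in GL261 the rise was that of Thbs1, thrombospondin 1 (2.95 ± 0.40).

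Against the same shares of 61.9% in BV2, 23.9% in BMDM and 44.6% in GL261, 2 lists of other proteases were counted. Of the ADAM and ADAMTS proteases, relatives that shed membrane proteins or cut proteoglycans, 6 of 11 rose and 1 fell in hypoxic BV2, among them Adam8, a myeloid surface protease (2.73 ± 0.14). In GL261 2 of 14 rose and 4 fell, with Adamts10 the largest fall (by 2.14, SE 0.21), and in BMDM 0 of 14 were called either way. Of the cathepsins and their cystatin inhibitors, 5 of 14 rose and 1 fell in BV2, 1 of 13 rose and 6 fell in GL261, and 0 of 13 rose and 1 fell in BMDM. Ctsl rose (1.12 ± 0.13) and Cst3, the secreted inhibitor cystatin C, fell (by 1.12, SE 0.15) in GL261. Ctsc fell in BV2 (by 0.80, SE 0.11) and BMDM (by 1.35, SE 0.29), the latter not called without normoxic replicate 1 (-1.04, adjusted p = 0.0695) or either hypoxic library. Panobinostat called 3 of 8 plasminogen genes and 2 of 9 ADAM genes higher in BV2, 1 of 13 cathepsin genes lower, and none of 10 regulators, where 14.6% of all genes were called and 7.21% called higher. In BMDM it called 0 genes of these lists by edgeR, where 0% of all genes were called.

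Likeness of pattern was measured as Pearson's r over the 16 BV2 and GL261 libraries, each centred on the mean of its line, so that the strong difference between the lines does not enter. The libraries share the oxygen and co-culture contrasts and, in co-culture, partner RNA, so these values are descriptions. The 2 genes most like Mmp14 were Fstl1 (0.990) and Gjc1 (0.980), those most like Mmp2 were Sparc (0.992) and Sox10 (0.992), and those most like Timp3 were Cdh6 (0.994) and Cdh2 (0.992). Mmp19 was closest to Esyt1 (0.949) and Phf23 (0.948) and Timp1 to Rhoc (0.948) and C1qtnf6 (0.886), and Fgd3 (0.872) was among the 2 genes closest to Timp2.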

How the data were processed

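Gene expression was measured by RNA sequencing of 38 libraries in 3 tables of raw counts per Ensembl gene, deposited by the authors as whole-number read counts without normalization. Per the submitters' processing notes, Trimmomatic 0.36, STAR 2.6, SAMtools and HTSeq 0.9.1 were used with mm10, and Picard 2.17.1 for the BV2 and GL261 table. The roles of these tools, the annotation and the strand setting are not given in the sources used here. Gene names and exon lengths came from the GENCODE M21 annotation of GRCm38.

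Counts were tested with edgeR 4.0.16 in R 4.3.3 (filterByExpr with a minimum count of 10 and minimum total of 15, TMM scaling, 1 mean per group, quasi-likelihood F test, Benjamini-Hochberg adjusted p under 0.05), in a fit per cell kind and experiment, with joint fits for differences between cell kinds. Standard errors are the fold change divided by the root of F. The tests were checked on simulated data, for the hypoxia contrasts. With DMSO, BMDM had a recovered fraction of 0.0297 for 2-fold and 0.364 for 4-fold changes. For 2-fold changes it reached 0.309 for BMDM alone, 0.376 for BV2 with DMSO, 0.968 for GL261 alone and 0.967 for BV2 alone. Of 4-fold changes, the other fits recovered at least 0.97. A lack of calls in the BMDM fit of the panobinostat experiment therefore cannot show that members stayed unchanged. The simulation gave every gene the common spread of its fit and changed well-counted genes only. For members with few counts or a wider spread, in any fit, these fractions cannot show how often a change would be called. DESeq2 1.42.0, other filters, a replicate block, the compared groups alone and the omission of each library were alternatives. The share of partner RNA was a median over partner-specific genes (100-fold or more above the studied cells) of the co-culture level divided by the level in the partner alone. Members and lists were chosen with earlier results of these data known. All members are named. Other family genes are named where they reached 1 CPM in a group, and from each list the genes with the largest rise and fall among those called, if their mean log2 CPM reached 3. Some genes that these rules pick are not reported here. In BMDM from co-culture the 3 same-numbered pairs deviated together (lowest correlation 0.244, highest 0.455), so for the hypoxia effect there the block is given where it changes a call. The labels give those numbers.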

Additional observations from a re-analysis of the deposited data

Results flagged for a closer look

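The response to hypoxia of BV2 cells alone and GL261 cells alone differed for 3 of 9 members by the test of the difference itself, fitted with edgeR over 16 libraries. In that test 37.4% of all genes were called, and 18.7% were called with the higher value in BV2. That joint fit scales both lines together, while the effects per line come from separate fits, so they do not subtract to the difference exactly. The Mmp19 difference was 1.29 on the log2 scale, from an effect of 1.20 in BV2 and one of 0.00 in GL261. Tmem198b, which overlaps Mmp19 on the other strand, went from a mean of 7.82 to 17.7 CPM in BV2 alone. In GL261 alone it went from 44.4 to 23.0 CPM, and its part in the Mmp19 difference was not tested. The Timp1 difference was 2.72, from 1.88 in BV2 and -0.75 in GL261. Its call rested on single BV2 libraries, and over the alternative settings and omissions its value ran from 1.76 to 4.53. The Timp2 difference was 0.74, from 0.62 in BV2 and -0.02 in GL261. In BV2 both hypoxic libraries were above both normoxic ones for all 3 genes. The median difference over all genes tested was 0.15.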

How the results depend on the processing

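No effect changed its direction while called. With no library left out, 349 values of called member effects stayed called and 6 did not. With 1 library, or both BMDM co-culture replicate 2 libraries, left out, 235 stayed called and 39 did not. In this section, counts of members called stand without the share of all genes called under the same setting. They therefore cannot set the members apart from other genes. Counts of members called that moved by over 1.5 times, or from or to 0, follow, with members that lack an adjusted p left out of lost calls. With genes kept only at a mean of 5 CPM, and so fewer genes tested, they were 3 and 2 for hypoxia in BV2 alone and from co-culture, 1 and 2 for co-culture in BV2 in normoxia and hypoxia, 1 for the BV2 interaction, and 0 for hypoxia with DMSO and for panobinostat in BV2. With no filter they were 2 for the BV2 interaction, 1 for co-culture in normoxic GL261, 4 and 5 for hypoxia in BMDM alone and from co-culture, 7 and 6 for co-culture in BMDM in normoxia and hypoxia, 3 for the BMDM interaction, 2 for panobinostat in BV2, 10 for hypoxia with DMSO and 4 for panobinostat in BMDM, and 6 and 2 for the differences between BMDM and BV2 in the hypoxia and panobinostat effects; the cause was not tested. With the replicate block, the count was 1 for the BV2 interaction, 1 for co-culture in hypoxic GL261, and 2 each for co-culture in normoxic BMDM, panobinostat in BV2 (with Mmp9 at 1.41, adjusted p = 0.0234) and hypoxia with DMSO in BMDM. Outside BMDM co-culture the numbers are shared by pairs of libraries only, and mean correlations of same-numbered libraries ran from 0.0335 (BV2) to 0.446 (BMDM with DMSO or panobinostat). With the DESeq2 Wald test it was 1 for the BV2 interaction, 3 for co-culture in normoxic BMDM, 4 for hypoxia with DMSO in BMDM, 5 for the difference between BV2 and GL261, and 2 for that between BMDM and BV2 in the hypoxia effect. Within 1.5 times, it was 4 against 6 for hypoxia in BV2 from co-culture, 4 against 5 and 3 against 2 for co-culture in hypoxic BV2 and BMDM, and 8 against 7 between BV2 and GL261 in normoxia. Fitted on the compared groups alone it was 0 for hypoxia in BMDM from co-culture, 2 and 1 for co-culture in normoxic and hypoxic BMDM, and 2 for panobinostat in BV2; the cause was not tested. The mean BV2 RNA share in hypoxic GL261 co-culture was 0.271% with genes specific at 30-fold, against 0.237%.

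Leaving out each library in turn gave 0 to 1 calls for the BV2 interaction, 1 to 3 for hypoxia in GL261 from co-culture, 0 to 2 for hypoxia in BMDM alone and 1 to 4 from co-culture, 0 to 4 for co-culture in BMDM at either oxygen level, 0 to 1 for panobinostat in BV2, 0 to 2 for hypoxia with DMSO in BMDM and 0 to 2 for the BMDM and BV2 difference in that effect. With 2 libraries in most groups and a wide spread in BMDM, effects in BMDM were the least precise.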

Other observations

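The single library with the most Mmp9 was normoxic BMDM with DMSO, replicate 1, at 1065 CPM, against 23.0 CPM in replicate 2. It also held 96 counts of Mmp3 against 0 in replicate 2. Its 8 neutrophil markers summed to 13.5 CPM, against 1.51 CPM (neither TMM-scaled). S100a8 and Camp, at 11.1 and 2.99 CPM with TMM scaling, made up nearly all of the larger sum. Ly6g, Mpo, Retnlg and Ltf were at 0 in both libraries. Mmp8, the neutrophil collagenase, stood at 0.985 and 6.73 CPM in normoxic and 8.72 and 9.46 CPM in hypoxic BMDM alone.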
